A study of Rattus norvegicus with 10 samples.

Results

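Glycolysis was examined through 10 genes that encode alternative forms of its enzymes, Hk1 and Hk2 (hexokinase), Pfkm, Pfkl and Pfkp (phosphofructokinase), Eno1 and Eno3 (enolase), Pkm (pyruvate kinase), and Ldha and Ldhb (lactate dehydrogenase). They were taken by symbol from the 18025 genes of the deposited expression table, where all 10 were listed, and all 10 were among the 14542 genes tested. The RNA came from hearts of fetal wild-type Sprague-Dawley rats at embryonic day 19.5. Dams aged 3 months were injected on 3 successive days with citric acid buffer alone (CON) or with streptozotocin in that buffer (HG), which destroys the beta cells of the pancreas, and sires were normoglycemic. Dams of the HG group had non-fasting blood glucose above 16 mM 7 days after injection. The sources differ on whether dams were assigned before or after mating, so that the stage of pregnancy at injection is uncertain. Each group had 5 libraries of stranded mRNA. The number of dams and litters behind them is not given, so p-values measure the spread between libraries, which may include littermates. The study's methods speak of RNA pooled from 10 samples and a legend of isolated cardiomyocytes, whereas the labels give heart tissue and the table holds a separate column for each of 10 libraries.

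Glycolysis splits glucose into pyruvate. Hexokinase traps glucose in the cell, phosphofructokinase commits it to the pathway, enolase and pyruvate kinase form its last steps, and lactate dehydrogenase interconverts pyruvate and lactate. Muscle forms of these enzymes (Pfkm, Eno3 and the mutase Pgam2) accumulate as striated muscle matures, beside forms made in most tissues (Eno1, Pgam1, Pfkl). In lactate dehydrogenase, the B subunit predominates in the adult heart and the A subunit in tissues that release lactate.

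The sequences upstream of the genes are shown for the enzymes in which 1 form fell and its partner did not pass the test. These are the 250 bases before the annotated start in RefSeq (build GRCr8, 5′ to 3′), and all 10 genes had an entry there. Capitals mark matches on either strand to ACGTG, the core of sites bound by hypoxia-inducible factors and by factors of the E-box type, and to GCGTG, a related core. Of 33469 promoter windows of this length, 16.6% held ACGTG and 25.9% held GCGTG. Eno3 lies at chr10:55868936-55869185 (plus strand), the second start listed for Eno1 at chr5:166003111-166003360 (plus strand), Ldhb at chr4:177177409-177177658 (minus strand) and Ldha at chr1:106507842-106508091 (plus strand).
Eno3: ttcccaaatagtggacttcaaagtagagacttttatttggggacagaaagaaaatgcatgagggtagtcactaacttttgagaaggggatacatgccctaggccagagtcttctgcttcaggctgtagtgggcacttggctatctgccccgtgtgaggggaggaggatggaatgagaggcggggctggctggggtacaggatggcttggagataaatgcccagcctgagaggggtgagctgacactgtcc
Eno1: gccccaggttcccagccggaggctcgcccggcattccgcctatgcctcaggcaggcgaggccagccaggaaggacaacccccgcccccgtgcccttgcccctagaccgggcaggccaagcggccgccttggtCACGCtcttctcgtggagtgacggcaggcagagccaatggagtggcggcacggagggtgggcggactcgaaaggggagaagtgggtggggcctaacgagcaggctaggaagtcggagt
Ldhb: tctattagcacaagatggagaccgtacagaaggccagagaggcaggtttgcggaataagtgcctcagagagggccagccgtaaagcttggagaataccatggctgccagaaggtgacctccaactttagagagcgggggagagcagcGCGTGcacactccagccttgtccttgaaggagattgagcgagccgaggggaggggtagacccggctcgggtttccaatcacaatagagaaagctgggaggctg
Ldha: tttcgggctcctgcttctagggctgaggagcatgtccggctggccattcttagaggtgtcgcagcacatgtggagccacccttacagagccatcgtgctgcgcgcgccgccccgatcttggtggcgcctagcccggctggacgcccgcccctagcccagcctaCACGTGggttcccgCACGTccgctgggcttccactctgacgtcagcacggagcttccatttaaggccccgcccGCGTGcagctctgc
Ldha held 3 matches to ACGTG, of which 2 are the strands of a single CACGTG, and 1 to GCGTG. Ldhb and this start of Eno1 each held 1 match to GCGTG, and Eno3 held neither motif. Over the 12 windows of the 10 genes (Hk1 and Eno1 have 2 each), 3 held ACGTG and 6 held GCGTG. A match describes letters in a window and is not a site of binding.

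Expression was given as FPKM, in which fragments are divided by gene length and library size and which allows levels of different genes to be set side by side. Each library held 16672876 to 19109844 reads on genes. Pairs of libraries of 1 group correlated between 0.988 and 0.992 across tested genes, and pairs across groups between 0.977 and 0.984. Of all 14542 genes tested with limma, 28.4% were higher and 11.8% lower in HG at an adjusted p under 0.05. This split moved to 15.6% higher and 17.5% lower when libraries were scaled by median-of-ratios factors, and to 18.0% and 15.9% after quantile normalization. A further background is the share of tested genes whose groups did not overlap, 19.3% with every HG library above every CON library and 8.12% with every HG library below. The median log2FC, the log2 fold change of HG over CON, was 0.09 over all tested genes (SE below is its standard error).

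In 3 of the enzymes, RNA of 1 form was lower in HG hearts while no partner form was called lower. Of the 10 genes, 3 were lower in HG (Pfkm, Eno3 and Ldhb), 2 were higher (Pfkl and Pkm, of which neither was with median-of-ratios factors), and 5 did not pass the test (Hk1, Hk2, Pfkp, Eno1 and Ldha). Beside these counts, 11.8% of all tested genes were lower and 28.4% higher. The same 3 lower genes were those whose HG libraries all lay below the CON libraries, and the other 7 overlapped. Only Eno3 also had a log2FC under -1, which 1.07% of the tested genes did. The median log2FC of the 10 genes was 0.04, and -0.05 with median-of-ratios factors. In RNA of whole tissue, fewer cells of a type and less RNA per cell cannot be told apart. The sum of 12 cardiomyocyte markers, none at 0, was 33820 to 35230 FPKM in CON and 28310 to 32700 in HG without overlap, with 10 of 12 lower and Nppa higher, and its part in the lower genes was not tested.

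**Figure D1:**
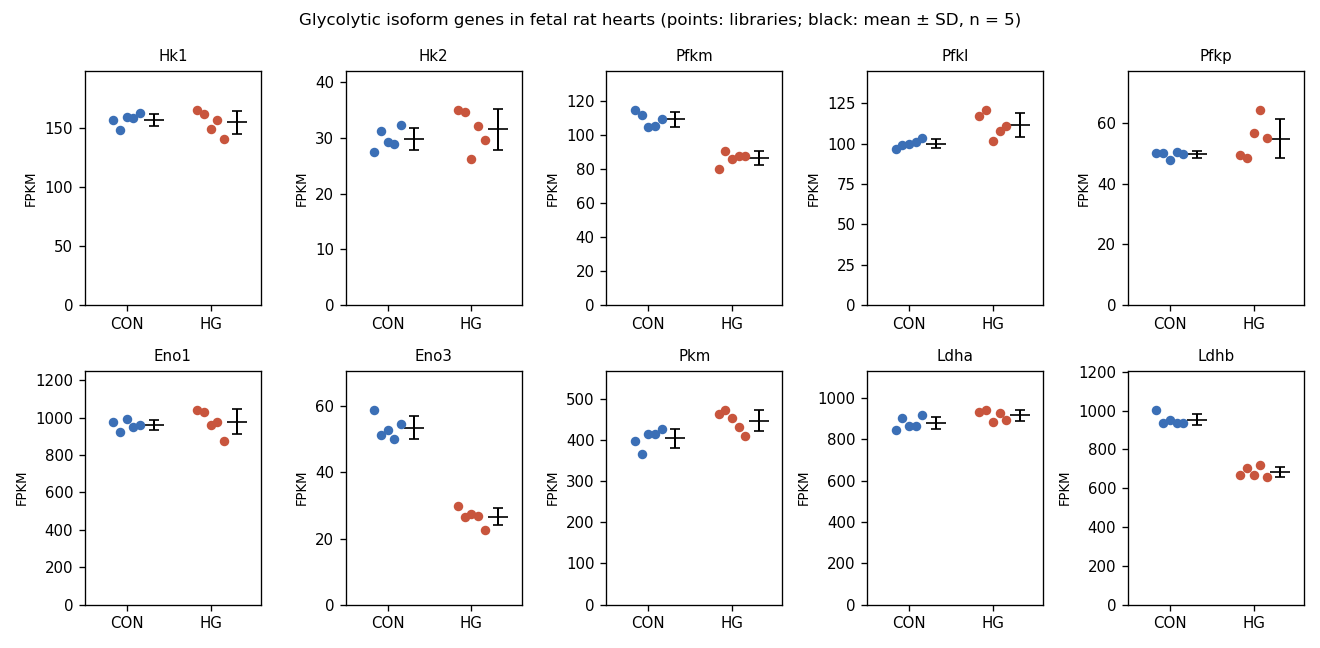
Level of each of the 10 genes in FPKM (vertical axes, each starting at 0) in the 5 CON and 5 HG libraries (points), with the group mean and SD beside them. Eno3, Ldhb and Pfkm have groups that do not overlap, and in the other 7 genes the groups overlap.

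The enolase form of striated muscle, Eno3 (NCBI Gene 25438), fell in HG, where its mean was the lowest of the 10 genes. It measured 59.0, 51.3, 52.8, 50.0 and 54.6 FPKM in CON libraries 1 to 5 and 29.8, 26.5, 27.3, 26.8 and 22.5 FPKM in HG libraries 1 to 5. Every HG library lay below every CON library, and CON 1 and HG 5 were the extremes. The means were 53.6 ± 3.52 and 26.6 ± 2.63 FPKM (SD, n = 5 each), a log2FC of -1.01 (SE 0.0684, adjusted p = 1.2e-06 with limma). This gene is among the 70 that the study picked from these libraries, so its direction there is not independent evidence. The value lies close to the fold threshold of -1, and without CON 1 it was -0.98 and without HG 5 -0.95.
The form made in most tissues, Eno1 (24333), measured 974, 921, 993, 949 and 961 FPKM in CON and 1043, 1031, 961, 978 and 877 FPKM in HG. The groups overlapped throughout, with HG 5 the lowest and HG 1 the highest of all 10 libraries. The log2FC was 0.03 (95% interval -0.08 to 0.13, adjusted p = 0.711 with limma), and its sign changed with median-of-ratios factors (-0.07). Eno3 was a small part of the enolase RNA, 5.29 ± 0.286% of the sum of both in CON and 2.64 ± 0.135% in HG, as mean ± SD of 5 libraries. That difference of -2.64 percentage points had an exact permutation p of 0.00794, the smallest that 5 libraries against 5 allow (two-sided, 0.0119 after adjustment over 6 shares tested). The summed level of Eno1 and Eno3 was 1013 ± 29.0 FPKM in CON and 1005 ± 68.5 in HG.
The third enolase gene, Eno2 (24334), known as the form of neurons, rose from 58.5 ± 4.52 to 70.4 ± 3.70 FPKM, with a log2FC of 0.27 (SE 0.0541, adjusted p = 0.00206 with limma). The 8 neuron and glia markers together summed to 7.05 to 7.37 FPKM in CON and 5.94 to 8.37 in HG. Which cells held the Eno2 RNA was not tested. Its HG libraries (66.3 to 75.8) all lay above its CON libraries (53.8 to 66.0). In CON the ranges of Eno2 and Eno3 overlapped, and in HG every library held more Eno2 than Eno3.

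Lactate dehydrogenase showed the same arrangement at a much higher level of RNA. Ldhb (24534), the heart-type subunit, measured 1005, 938, 954, 939 and 934 FPKM in CON and 666, 705, 666, 718 and 659.8 FPKM in HG. The lowest CON library (934 FPKM) stood well above the highest HG library (718 FPKM). Means of 953.9 ± 29.7 and 683.2 ± 26.6 FPKM (SD, n = 5 each) gave a log2FC of -0.48 (SE 0.0383, adjusted p = 3.39e-06 with limma), a decrease of 28.4%.
Ldha (24533), the subunit of tissues that release lactate, measured 843, 901, 863, 864 and 915 FPKM in CON and 933, 943, 882, 926 and 893 FPKM in HG. All 5 HG libraries lay above the CON mean, yet the groups overlapped. The log2FC was 0.06 (95% interval -0.02 to 0.14, adjusted p = 0.207 with limma). Its call depended on scaling, with 0.13 and an adjusted p of 0.0235 after quantile normalization and -0.03 with median-of-ratios factors.
Within each library Ldhb made up 54.4, 51.0, 52.5, 52.1 and 50.5% of the summed RNA of both genes in CON. In HG it made up 41.7, 42.8, 43.0, 43.7 and 42.5%. By FPKM, Ldhb RNA was thus the more abundant in every CON library and the less abundant in every HG library, and protein was not measured here. The difference was -9.37 percentage points (exact permutation p = 0.00794, adjusted p = 0.0119), and the ratio of Ldhb to Ldha went from 1.09 to 0.746, a log2 difference of -0.54 (SE 0.0438). A ratio within a library does not depend on the factor by which libraries are scaled. The sum of both genes was 1831 ± 20.7 FPKM in CON and 1599 ± 48.0 in HG, with ranges of 1803 to 1849 and 1548 to 1649 that did not overlap.

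In phosphofructokinase, a form that fell stood beside a form that was higher. Pfkm (65152), the muscle form, measured 115, 112, 105, 105 and 109.6 FPKM in CON and 79.9, 90.7, 85.8, 87.4 and 88.0 FPKM in HG. No HG library reached the lowest CON library. The log2FC was -0.34 (SE 0.0407, adjusted p = 6.33e-05 with limma), a decrease of 21.0%.
Pfkl (25741), the liver form, measured 96.6, 99.2, 99.8, 101 and 104 FPKM in CON and 117, 121, 102, 108 and 111 FPKM in HG. Only HG 3 fell within the CON range. Its log2FC was 0.16 (SE 0.0452, adjusted p = 0.0152 with limma), but 0.07 with an adjusted p of 0.318 with median-of-ratios factors.
Pfkp (60416), the platelet form, measured 50.2, 50.1, 47.9, 50.4 and 49.7 FPKM in CON and 49.6, 48.6, 56.8, 64.2 and 55.1 FPKM in HG. The HG libraries were spread far more widely than those of CON, with 3 above the CON range and 2 within it. The log2FC of 0.14 did not pass the test (95% interval -0.00 to 0.28, adjusted p = 0.113 with limma), and without HG 2 it was 0.18 with an adjusted p of 0.0398.
Shares of the family's RNA do not depend on such factors. Pfkm held 42.2 ± 1.15% in CON and 34.1 ± 1.13% in HG, a difference of -8.07 percentage points. Pfkl held 38.6 ± 1.14% and 44.2 ± 2.72%, a difference of 5.54 points, and the groups did not overlap in either (SD, n = 5 each; exact permutation p = 0.00794, adjusted p = 0.0119 for both). The most abundant form was Pfkm in every CON library and Pfkl in every HG library. Pfkp held 19.2 ± 0.296% and 21.7 ± 2.41%, a difference of 2.52 points (exact permutation p = 0.0635, adjusted p = 0.0762), and without HG 2 the difference was 3.27 points with an adjusted p of 0.00952. The shares of the 3 forms add up to the whole in each library, so a lower share of Pfkm by itself raises the others. The higher share of Pfkl is thus not separate evidence that its RNA rose. The ratio of Pfkp to Pfkl was 0.497 in CON and 0.495 in HG. The sum of the 3 genes was 259.0 ± 4.33 FPKM in CON and 253.0 ± 7.14 in HG.

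**Figure D2:**
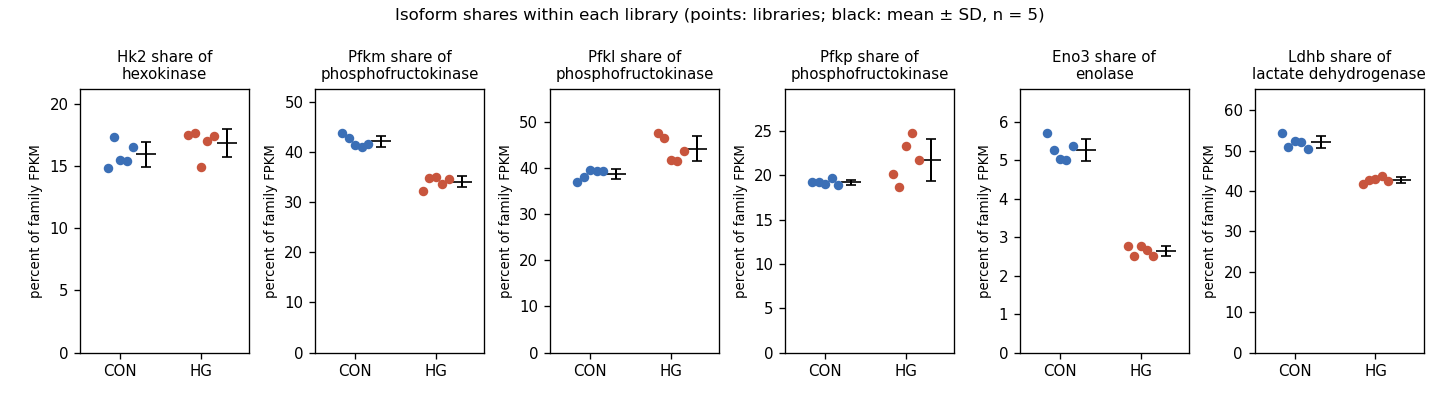
Share of 1 form in the summed FPKM of its enzyme, in percent (vertical axes, each starting at 0), in each CON and HG library (points), with the group mean and SD. The shares of Pfkm, Eno3 and Ldhb are lower and that of Pfkl higher in all 5 HG libraries, while those of Hk2 and Pfkp overlap.

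Hexokinase RNA showed no difference that passed a test. Hk1 (25058), the form of most tissues and of the fetal heart, measured 157, 149, 159, 158 and 162 FPKM in CON and 165, 161, 149, 157 and 141 FPKM in HG. Its log2FC was -0.02 (95% interval -0.12 to 0.07, adjusted p = 0.714 with limma).
Hk2 (25059), the insulin-responsive form of muscle and fat, measured 27.4, 31.2, 29.2, 29.0 and 32.3 FPKM in CON and 35.0, 34.7, 26.2, 32.1 and 29.7 FPKM in HG. The HG group held both the lowest and the highest library. Its log2FC was 0.07 (95% interval -0.09 to 0.24, adjusted p = 0.471 with limma), and -0.02 with median-of-ratios factors. Hk2 held 16.0 ± 0.990% of the summed RNA of both forms in CON and 16.9 ± 1.13% in HG, within the spread of 5 libraries each (SD; exact permutation p = 0.19, adjusted p = 0.19). The share in HG 3, 14.9%, stood apart from the other HG libraries, and without it the difference was 1.43 points with an adjusted p of 0.0381.

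Pkm (25630), which encodes the muscle-type pyruvate kinases M1 and M2 by alternative splicing, measured 399, 366, 414, 414 and 427 FPKM in CON and 464, 474, 455, 431 and 410.4 FPKM in HG. All 5 HG libraries were above the CON mean, and HG 5 was within the CON range. The log2FC was 0.15 (SE 0.0511, adjusted p = 0.0383 with limma). The call was lost when any 1 of 7 libraries was left out (CON 1 to 4 and HG 1 to 3, adjusted p between 0.0502 and 0.0871), and the log2FC with median-of-ratios factors was 0.05 with an adjusted p of 0.487. The table counts whole genes, so M1 and M2 were not told apart. Pklr (24651), the liver and red cell form, fell from 0.878 ± 0.249 to 0.273 ± 0.0913 FPKM, with a log2FC of -1.39 (SE 0.228, adjusted p = 0.000522 with limma). It rested on 7 to 65 reads per library. With a pseudocount of 1 the log2FC was -0.55 (adjusted p = 0.00049 with limma).

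Ordered by mean level, the 10 genes in CON were Eno1, Ldhb, Ldha, Pkm, Hk1, Pfkm, Pfkl, Eno3, Pfkp and Hk2. Eno1 and Ldhb had overlapping ranges, as had Eno3 and Pfkp, and all other neighbours were apart. In HG the order was Eno1, Ldha, Ldhb, Pkm, Hk1, Pfkl, Pfkm, Pfkp, Hk2 and Eno3, where the ranges of Eno1 and Ldha overlapped and those of Hk2 and Eno3 overlapped. Eno1 and Ldha, like Gapdh and Aldoa, have processed copies elsewhere in mammalian genomes, and how reads shared with such copies were assigned is not given in the sources used here.

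Of 20 further genes for glycolytic enzymes, 14 were tested, with 7 lower and 2 higher in HG and 5 that did not pass. Beside these, 11.8% of all tested genes were lower and 28.4% higher. Their median log2FC was -0.08, beside 0.09 over all tested genes. The muscle form of phosphoglycerate mutase, Pgam2 (24959), measured 35.0, 29.7, 29.7, 38.7 and 31.5 FPKM in CON and 16.2, 18.2, 16.9, 15.4 and 15.6 FPKM in HG. The groups were far apart, and the log2FC of -0.99 (SE 0.0759, adjusted p = 2.59e-06 with limma) was close in size to that of Eno3, which encodes the enzyme of the next step. Its partner Pgam1, the form of most tissues, went from 443.7 ± 15.7 to 401.9 ± 26.7 FPKM (log2FC -0.14, adjusted p = 0.0293), and that call was lost when CON 1, 2 or 3 or HG 3 or 5 was left out (adjusted p between 0.0596 and 0.0736), without the trend (0.0557) and after quantile normalization (log2FC -0.07, adjusted p = 0.153). The ratio of Pgam2 to Pgam1 went from 0.0743 to 0.0411, a log2 difference of -0.85 (SE 0.102).
Among the aldolases, Aldoa, the form of muscle, fell from 1518 ± 35.7 to 1362 ± 72.9 FPKM (log2FC -0.16, adjusted p = 0.0115) and Aldoc from 22.3 ± 1.46 to 14.9 ± 1.87 FPKM (log2FC -0.59, adjusted p = 0.000193). Pgam2, like Eno3, is among the genes the study picked from these libraries.
Gpi, which follows hexokinase, was lower (log2FC -0.11, adjusted p = 0.0204). Its call was lost after quantile normalization (log2FC -0.05, adjusted p = 0.2) and with a block for the replicate number (adjusted p = 0.0534). Adpgk, a glucokinase that uses ADP, was higher (log2FC 0.15, adjusted p = 0.0217), and its call was lost with median-of-ratios factors (adjusted p = 0.354), after quantile normalization (0.352) and without CON 4 (0.0549) or HG 3 (0.0536). Tpi1, Gapdh, Pgk1, Eno4 and Ldhal6b did not pass, with Gapdh at 1996 ± 157 and 1940 ± 192 FPKM.

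**Figure D3:**
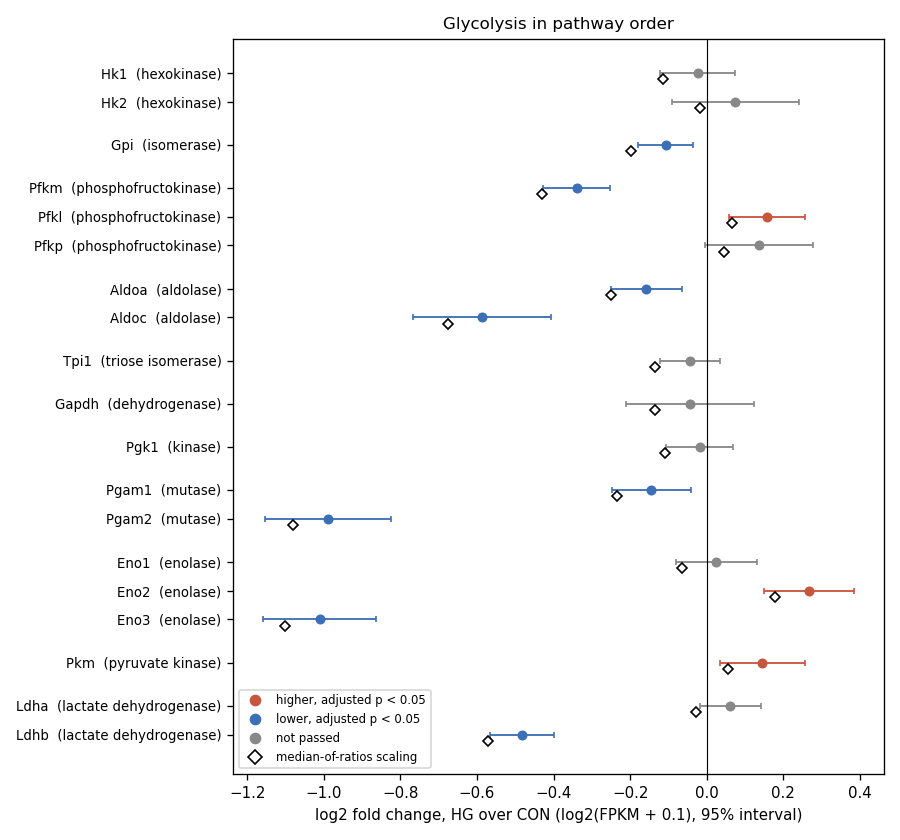
Log2 fold change of HG over CON for glycolytic genes in pathway order (horizontal axis, log2(FPKM + 0.1) scale), with 95% intervals from limma, colours for the call, and open diamonds for the value with median-of-ratios factors. Adpgk and genes under 1 FPKM are left out. Eno3 and Pgam2 lie near -1, Aldoc, Ldhb and Pfkm between -0.59 and -0.34, and the rest between -0.16 and 0.27.

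Genes that set the flux through phosphofructokinase and glucokinase were also examined. Of 8 tested, 1 was higher, 1 lower and 6 did not pass. The shares over all tested genes were 28.4% higher and 11.8% lower, and 1 lower of 8 lies near the latter. Gckr (25658), the regulatory protein of glucokinase, fell from 2.98 ± 0.281 to 1.54 ± 0.314 FPKM (log2FC -0.93, SE 0.14, adjusted p = 0.00031 with limma). Pfkfb1, which makes and removes the activator fructose 2,6-bisphosphate, was at 0.221 ± 0.0842 and 0.359 ± 0.0562 FPKM (log2FC 0.54, adjusted p = 0.0467), and its call was lost without any 1 of 7 libraries (CON 1, 2 or 3 or HG 1, 3, 4 or 5, adjusted p between 0.0701 and 0.108).

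Of the lists of pathway genes examined here, that of pyruvate and lactate use had the most genes tested, 18, and also the most called lower. Next came the further glycolytic enzymes, with 7 of 14 lower. Of 18 genes for the mitochondrial pyruvate carrier, the pyruvate dehydrogenase complex with its kinases and phosphatases, and the carriers of lactate, 12 were lower in HG, 4 were higher and 2 did not pass. Over all tested genes, 11.8% were lower and 28.4% higher. The groups lay apart for 10 genes below and 3 above, beside 8.12% and 19.3% of all tested genes. The median log2FC of the list was -0.25. Mpc1 (171087), a subunit of the carrier that brings pyruvate into mitochondria, measured 118, 124, 104, 105 and 111 FPKM in CON and 68.4, 66.3, 65.2, 72.2 and 62.7 FPKM in HG. The groups were far apart (log2FC -0.75, SE 0.0532, adjusted p = 1.68e-06 with limma). Its partner subunit Mpc2 had a log2FC of -0.46 (adjusted p = 8.6e-05).
Kinases that switch pyruvate dehydrogenase off moved in opposite directions. Pdk2 (81530) measured 50.1, 45.3, 52.8, 48.6 and 49.5 FPKM in CON and 26.8, 33.3, 30.3, 28.4 and 25.5 FPKM in HG, with a log2FC of -0.77 (SE 0.0672, adjusted p = 6.29e-06 with limma). Pdk4 (89813), the form induced by fasting and diabetes, measured 9.30, 8.69, 7.87, 9.29 and 10.8 FPKM in CON and 12.6, 14.8, 15.3, 12.8 and 15.0 FPKM in HG, with a log2FC of 0.61 (SE 0.0848, adjusted p = 0.000166). The groups did not overlap in either gene. The ratio of Pdk4 to Pdk2 went from 0.187 to 0.492, so that Pdk2 remained the more abundant.
Besides Mpc1, Pdk2 and Pdk4, the rule for named genes took Pdhx, and the others of these 18 genes are named after their values were seen. Pdhx (311254), which anchors a subunit of the complex, fell from 50.9 ± 1.36 to 34.7 ± 3.92 FPKM (log2FC -0.56, SE 0.0674, adjusted p = 6.7e-05 with limma). The catalytic subunits Pdha1, Pdhb, Dlat and Dld were lower, with log2FCs between -0.32 and -0.24. Of the lactate carriers, Slc16a1 was lower (log2FC -0.23, adjusted p = 0.000797) and Slc16a3 higher (0.15, adjusted p = 0.036). Pdk1 (0.16), Pdk3 (0.20) and Slc16a3 lost their calls with median-of-ratios factors, which left Pdk4 as the 1 higher gene, whereas 12 genes were lower there too. Without CON 5, 2 genes were higher.

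**Figure D4:**
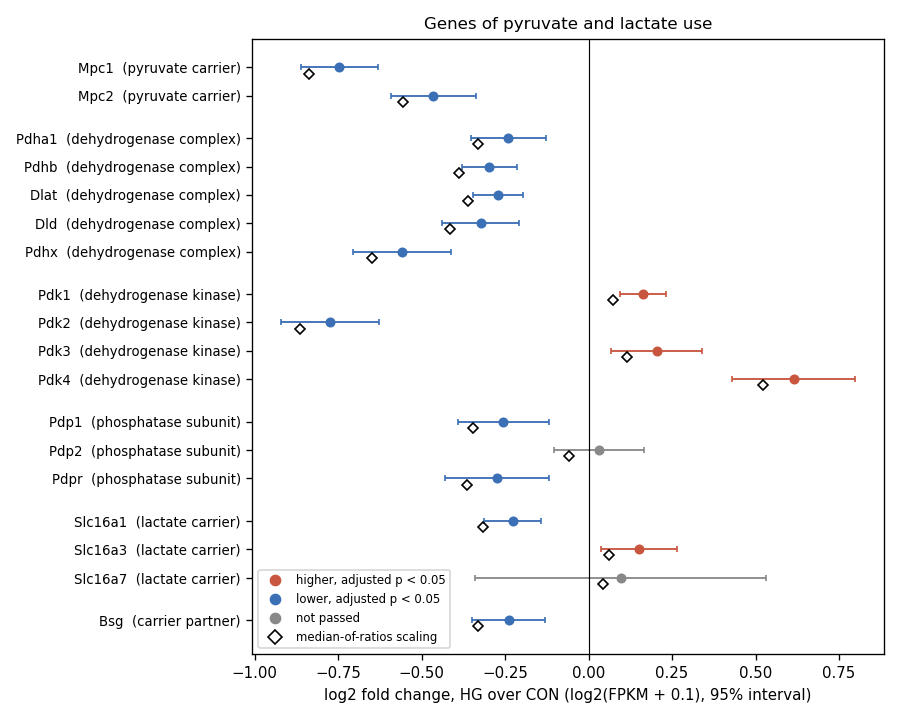
Log2 fold change of HG over CON for 18 genes of pyruvate and lactate use (horizontal axis, log2(FPKM + 0.1) scale), with 95% intervals from limma, colours for the call, and open diamonds for the value with median-of-ratios factors. Pdk2 and Mpc1 are lowest at -0.77 and -0.75, and Pdk4 is highest at 0.61.

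Of 8 genes of the pentose phosphate pathway, which leaves glycolysis after hexokinase, 2 were higher in HG, beside 28.4% of all tested genes. None of the 8 was lower (0 in limma, at an unadjusted p under 0.05 and with voom) and 6 did not pass. Their median log2FC was 0.07, and quantile normalization gave -0.00 and median-of-ratios factors -0.02. Tkt (64524), the transketolase that returns sugars to glycolysis, measured 112, 111, 115, 122 and 118 FPKM in CON and 156, 155, 143, 146 and 137 FPKM in HG (log2FC 0.35, SE 0.043, adjusted p = 7.65e-05 with limma). Its groups did not overlap.

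Other lists of cell type markers were set beside these values. Their counts stand against 28.4% higher and 11.8% lower of all tested genes. The sum of 6 smooth muscle and pericyte markers was 761.7 to 884.8 FPKM in CON and 976 to 1228 in HG, also without overlap, with 3 higher and 1 lower. Red cell markers ranged from 10600 to 20030 FPKM in CON and from 8358 to 11710 in HG. Of the 16, 10 were lower and 2 were higher, Hbe1 (log2FC 2.242) and Hbz (4.075). Sums of endothelial (272.7 to 297.5 and 280 to 309.9 FPKM), fibroblast (1690 to 1954 and 1533 to 1749), leukocyte (29.8 to 37.4 and 32.9 to 43.7) and neuron and glia markers (7.05 to 7.37 and 5.94 to 8.37) overlapped between CON and HG. Of 8 endothelial markers 2 were higher and 0 lower, and of 7 fibroblast markers 2 were higher and 3 lower. Of 7 leukocyte markers 2 were higher and 1 lower, and of 5 tested neuron and glia markers 0 were higher and 1 lower. Skeletal muscle markers summed to 5.67 to 8.02 FPKM in CON and 7.03 to 11.6 in HG, with 2 of 5 tested higher and 0 lower. The sum of 6 liver markers, of which 4 were lower, was at most 2.60 FPKM in HG and 80.1 FPKM in CON 3, against at most 8.10 in the other CON libraries. Markers of lung and thymus summed to at most 0.105 FPKM in a library. The part of these lists in the values of the glycolytic genes was not tested.

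The genes whose levels were most like those of Eno3 over the 10 libraries were Sod2 (Pearson r = 0.990), Bcat2 (0.989), Lpl (0.988), Ndufv1 (0.988) and Ndufa8 (0.988), among 11709 genes that averaged 1 FPKM or more. Sod2 encodes the superoxide dismutase of mitochondria, Bcat2 an aminotransferase of branched-chain amino acids, Lpl lipoprotein lipase, and the last 2 are subunits of respiratory complex I. Their log2FCs of HG over CON were -0.40, -0.57, -0.98, -0.42 and -0.34. On the same measure Ldhb stood at 0.976 (rank 34), Pgam2 at 0.955 (rank 147) and Pfkm at 0.917 (rank 384), whereas Eno1 stood at -0.01. The 10 libraries fall into 2 groups that differ in these genes, so these values describe the difference between groups as much as the libraries within them.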

How the data were processed

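Messenger RNA of fetal rat hearts was sequenced in 10 stranded libraries, 5 of CON and 5 of HG by their labels. The authors deposited FPKM, read numbers divided by gene length and library size, for 18025 genes, and all per-sample columns were used (0 unused). The submitters' processing notes name fastp, HISAT2, HTSeq, R 3.2.0 and the build mRatBN7.2 without their roles. The study tested counts with the DESeq package, which FPKM do not allow. Every value could be written as a whole multiple of 1 read (100% of genes, within 0.05 reads). Genes at 0 throughout, or above 0 in only 1 library, fit this by construction. The recovered reads gave the depth, 16672876 to 19109844 reads on genes per library.

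The 14542 genes that averaged 0.1 FPKM or more were fitted on the log2(FPKM + 0.1) scale in limma 3.58.1 (trend, no covariate, R 4.3.3), with Benjamini-Hochberg adjustment over all of them, a threshold of 0.05 and 95% intervals. For low genes this scale gives too small a fold change. Calls past the fold threshold needed an absolute log2 fold change above 1. Two-sided exact permutation tests over the 252 divisions of the libraries were run for shares of an enzyme's FPKM, adjusted over 6 shares. Promoter windows came from RefSeq (GRCr8). Python 3.11.15, numpy 2.4.6, pandas 2.3.3 and matplotlib 3.10.9 were used. The fit was tested on simulated data.

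The genes, lists and tests were chosen with earlier results of these data known. Of the other pathway lists, isoforms of a listed enzyme, of aldolase or of phosphoglycerate mutase are named, with up to 4 further called genes of the largest log2 fold change per list, of which 2 genes are not reported here. Each fit was repeated with a pseudocount of 1 or 0.01, with no filter or one at 1 FPKM, with quantile normalization or median-of-ratios factors, without the trend, without hemoglobin genes, with Y chromosome genes as a covariate, with a block for the replicate number, and without each library in turn. Minor isoforms in the total and log2 ratios were tried for the shares. A fit with voom on the recovered reads was chosen after seeing the data.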

Additional observations from a re-analysis of the deposited data

Results flagged for a closer look

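Of 74 groups of 5 libraries (each gene or share in each group), 5 held a library far from the other 4, where the gap to the nearest library was over 0.71 of the group's range. By chance about 1 group in 20 does so. Among the 10 genes, Ldhb in CON 1 was 1005 FPKM against 953.7 in the next library, and Pfkp in CON 3 was 47.89 FPKM against 49.69. The Hk2 share of hexokinase in HG 3 was 14.94% against 17.01%. Among other pathway genes, Gckr in HG 5 was 0.9931 FPKM against 1.631 and Hk3, which lay under the filter, in HG 3 was 0.2793 FPKM against 0.1098.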

How the results depend on the processing

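The 3 lower genes of the 10 (Pfkm, Eno3 and Ldhb) were lower in all 21 alternatives, with log2 fold changes from -0.43 to -0.31, -1.10 to -0.95 and -0.57 to -0.40, and 12 lower genes of pyruvate use, 1 lower flux regulator and 2 higher and 0 lower pentose phosphate genes were counted in each. No result that passed the test changed sign, while of those that did not pass Eno1 (-0.07), Hk2 (-0.02) and Ldha (-0.03) did with median-of-ratios factors and Hk1 (0.01) after quantile normalization. Of the 10 genes, the count higher was 1 without a filter, 0 with median-of-ratios factors, 1 without a trend, 1 with the replicate block, 3 after quantile normalization, and between 1 and 2 with 1 library left out. The count past the fold threshold was 0 with a pseudocount of 1 and between 0 and 1 with 1 library left out. Other glycolytic genes that were higher numbered 1 with median-of-ratios factors, 1 after quantile normalization, and 1 to 2 with 1 library left out, and those that were lower numbered between 5 and 8. Higher flux regulators numbered 0 with a pseudocount of 0.01, a mean of at least 1 FPKM, median-of-ratios factors, quantile normalization, the Y chromosome covariate and the replicate block, 2 with voom, and 0 to 2 with 1 library left out. Higher genes of pyruvate use numbered 1 with median-of-ratios factors, 2 after quantile normalization, and 2 to 4 with 1 library left out. The cause of these moves was not tested.

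No pairing of libraries by the shared replicate numbers was seen. Deviations from the group means correlated between -0.126 and 0.108 for a number, and 1 of 10 libraries correlated best with its own. The labels do not say what the numbers stand for, and this comparison cannot show that libraries of a number shared nothing. With the replicate block, differences in share were -8.07 (Pfkm), 5.54 (Pfkl), -2.64 (Eno3) and -9.37 points (Ldhb), as without it, and the sign-flip test of 5 pairs cannot go below 0.0625 (adjusted p = 0.0938 for each). With 1 library left out, they lay from -8.36 to -7.63 (Pfkm), 4.70 to 6.19 (Pfkl), -2.71 to -2.54 (Eno3), -9.77 to -8.79 (Ldhb), 1.76 to 3.27 (Pfkp) and 0.666 to 1.43 points (Hk2). Of the 5 among the 10 genes that did not pass, Pfkp had the 95% interval that reached farthest above 0, to a log2 fold change of 0.28, so differences of that size are not excluded at this number of libraries.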
